A study of Sus scrofa with 20 samples.

Results

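Collagens, the enzymes that modify and cross-link them, fibronectin and the proteins of elastic fibres were followed in pig backfat. Members were the loci of the deposited count table whose Ensembl identifier maps to a single pig symbol that begins with COL, digits and A, with LOX, PLOD, P4HA, PCOLCE, FBN or FBLN, or that equals FN1 or ELN. This took 46 of 23483 loci, which stand for 41 genes. COL3A1, COL5A3, COL6A2, COL12A1 and P4HA1 have 2 loci each, so their locus name is given, and since a strand setting is not given in the sources used here, how reads fell between such loci is uncertain. 22 symbols of the same families, among them COL1A1, COL4A1, COL15A1, COL18A1 and LOXL2, found no locus by this match and are not analysed here.

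Collagens are triple helices of 3 chains that are assembled in the endoplasmic reticulum, where prolyl hydroxylases (P4HA subunits) stabilise the helix and lysyl hydroxylases (PLOD) prepare sites for sugars and cross-links. After secretion the ends of fibrillar procollagens are removed, a step that PCOLCE speeds up, and lysyl oxidases (LOX, LOXL) link the fibres and also elastin. In fat, fibrillar collagens form the septa between lobules, type VI collagen and basement membrane surround each fat cell, and elastin laid on fibrillin microfibrils gives recoil to septa and vessels.

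The data are polyadenylated RNA of subcutaneous backfat from 10 female and 10 castrated male Italian Large White pigs, with 1 library per animal. All animals shared the same environment and diet, weighed 150 to 160 kg at slaughter and were 233 to 250 days old, and samples went into liquid nitrogen before RNA was extracted and read as pairs of 100 bp. Libraries carry their labelled sex and a number that follows deposit order and pairs no animals. The p-values below measure the spread between these animals.

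Each library held between 25754778 and 51248122 counts (median 36922247). CPM are counts scaled by library size and TMM factors, and 1 CPM stood for 25.8 to 51.2 counts. 3 sex-linked loci went against the label in the libraries labelled female 10 and castrated male 10: KDM6A, an X-linked gene, had 40.5 CPM in the library labelled female 10 and 54.4 to 72.7 in the other 9 females, against 63.5 CPM in the library labelled castrated male 10 and 33.8 to 46.8 in the other 9 castrated males. Counts and FPKM (fragments scaled by transcript length and library size) also parted in these libraries: across 12637 loci the correlation between the relative CPM and the relative FPKM of a library was 0.784 in the library labelled female 10, 0.504 in castrated male 10 and 0.901 to 0.973 in the other 18 libraries. Of the adipocyte markers, PLIN4, LIPE, PNPLA2, PPARG, CIDEC, FASN and SCD were detected in every library, and ADIPOQ, PLIN1, FABP4, LPL and LEP were not analysed here.

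The members took a visible part of the backfat RNA. Their summed counts were 2.07 to 3.14% of a female library, with a median of 2.73%, and 1.65 to 2.96% of a castrated male library, with a median of 2.30%. COL3A1 alone, the chain of type III collagen, took 0.659 to 1.38% in females and 0.442 to 1.27% in castrated males. The ranges of the sexes overlapped. The lowest shares of each sex belonged to female 7 and castrated male 1. In FPKM, COL3A1 (XLOC_012878) was not low in female 7, at 5203 against a median of 4968 over the 20 libraries.

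Per length, 1 fibrillar collagen stood far above the rest. COL3A1 (XLOC_012878) had a median of 4968 FPKM over the 20 libraries, with 1484 in castrated male 1 and 6641 in female 4. COL1A2, a chain of type I collagen, followed with a median of 648 FPKM and a range of 215 to 1097. The ratio of COL3A1 to COL1A2 was 7.46 in the median library and lay between 4.98 and 9.80, with a lowest value of 5.60 when both libraries numbered 10 were left out. In CPM, which are not scaled by length, the gap was smaller, with means of 10416 for COL3A1 (XLOC_012878) and 3759 for COL1A2. Counts and FPKM together imply a length of 2.24 kb for this COL3A1 locus, so the FPKM ratio depends on the transcript lengths used. Among the minor fibrillar chains, COL5A2 had a median of 276 FPKM, COL5A3 (XLOC_018465) of 184 FPKM and COL5A1 of 123 FPKM. Type V collagen sets fibril diameter, and its chains COL5A2 and COL5A1 stood at a median FPKM ratio of 2.39. The chains of cartilage fibrils were low: the median was 1.94 FPKM for COL11A1, 0.488 for COL11A2 and 0.262 for COL2A1.

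Type VI collagen, which forms beaded filaments around cells, reached levels like those of the fibrillar chains other than COL3A1. COL6A3 had a median of 729 FPKM, COL6A2 (XLOC_008370) of 271 FPKM and COL6A1 of 262 FPKM. Per length, COL6A2 (XLOC_008370) and COL6A1 were level, with a median FPKM ratio of 1.02. The ratio of COL6A3 to COL6A1 was 2.71 and reached 5.08 in female 7. In CPM COL6A2 (XLOC_008370) stood above COL6A1, with means of 802 and 365, so the FPKM ratio depends on the transcript lengths used. The second COL6A2 locus (XLOC_009115) had a mean of 98.1 CPM. COL6A5 was barely present at a median of 0.151 FPKM. In the libraries labelled female 10 and castrated male 10, the FPKM obtained per CPM was 1.47 and 2.01 times that of the median library for COL6A2 and 1.31 and 1.89 times for COL6A1, and ratios of FPKM from these libraries are less certain. The correlation of log2 CPM with log2 FPKM over libraries was 0.40 for COL6A3 and 0.60 for COL6A2 (XLOC_008370).

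Collagens that decorate or link fibrils followed at lower FPKM. COL12A1 (XLOC_000243) had a median of 69.0 FPKM, COL14A1 of 62.9 and COL16A1 of 26.9. COL8A1, a short-chain collagen of vessel walls, had 8.34 FPKM. Basement membrane chains with a usable FPKM were low, with medians of 1.26 FPKM for COL4A6, 0.173 for COL4A4 and 0.109 for COL4A3. COL4A2, a chain of the common type IV collagen, had 1389 CPM on average but an FPKM near 0, which would need a locus length of 6711 kb. Counts and FPKM disagree at this locus, so COL4A2 is given in CPM only and its level is uncertain. The second COL12A1 locus (XLOC_001262) showed the opposite mismatch, with 0 to 5 counts in a library beside a median of 29.8 FPKM, and did not pass the filter on low counts.

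Among the processing proteins the enhancer of procollagen cleavage was the most abundant. PCOLCE had a median of 284 FPKM, in the range of COL5A2, and its relative PCOLCE2 had 49.0 FPKM. The prolyl hydroxylase subunits P4HA1 (XLOC_011478) and P4HA2 had 58.7 and 53.5 FPKM, and P4HA3 had 7.77 FPKM. The lysyl hydroxylases PLOD3, PLOD1 and PLOD2 had 30.6, 25.9 and 16.0 FPKM. The lysyl oxidases were lower still, with 11.7 FPKM for LOX, 4.84 for LOXL1 and 1.68 for LOXL4. LOX was the member whose median FPKM depended most on the libraries labelled female 10 and castrated male 10: it was 9.72 FPKM without them.

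The elastic fibre genes and fibronectin lay mostly below the type V chains. FN1, which guides collagen and fibrillin assembly, had a median of 93.3 FPKM and reached 263 in female 3. FBLN5, which ties elastin to microfibrils, had 85.1 FPKM, ELN (elastin) 82.6, FBN1 (fibrillin-1) 67.3 and FBLN1 (fibulin-1) 55.8 FPKM. ELN ran from 20.2 to 375 FPKM. FBN2, a fibrillin best known from development, had 0.580 FPKM, so FBN1 stood 127 times above it per length in the median library. In CPM the gap was smaller, with means of 274 for FBN1 and 5.53 for FBN2. Of the 43 neighbours in the order of the 44 members with a usable FPKM, 35 overlapped in their interquartile ranges, so most adjacent ranks do not differ beyond the spread. COL3A1 above COL6A3, and COL1A2 above PCOLCE, were among the 8 steps that did not overlap.

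**Figure D1:**
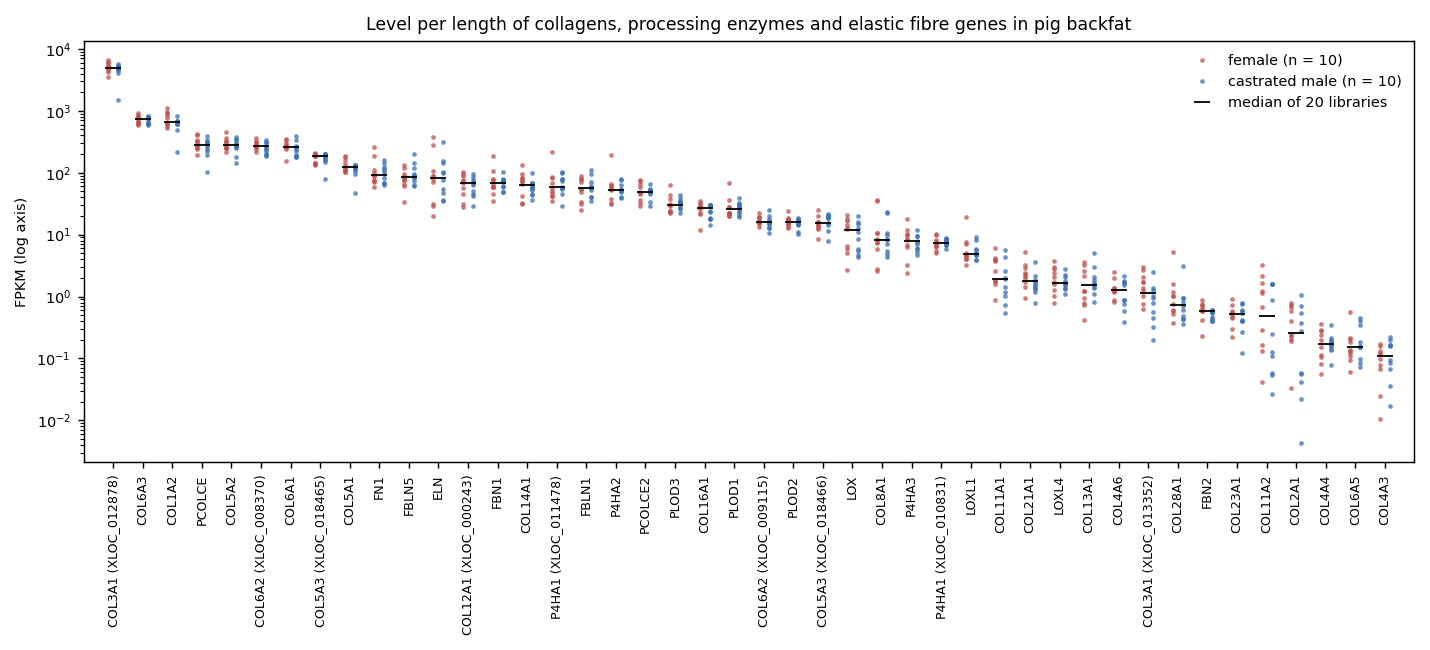
FPKM (log axis) of the 44 members with a usable FPKM, in order of their median over 20 libraries (black bar), with 1 point per library, females left in red and castrated males right in blue; values of 0 are not drawn. COL3A1 (XLOC_012878) stood highest at a median of 4968 FPKM, and castrated male 1 is its separate low point at 1484 FPKM.

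A few animals carried most of the extreme values. Among the 43 members with a mean of at least 1 CPM, castrated male 1 had the lowest CPM for 13 and female 7 for 12. Female 2, female 3 and female 7 each had the highest CPM for 8 members. The members at the extremes differed between these animals by role.

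Castrated male 1 was low in fibrillar collagens. COL3A1 (XLOC_012878) had 6787 to 13321 CPM in females, with a median of 12071, and 3894 to 12900 CPM in castrated males, with a median of 10091. COL1A2 had 2907 to 5974 CPM in females, with a median of 3814, and 1190 to 4264 CPM in castrated males, with a median of 3582. In both genes castrated male 1 was the lowest of all libraries, while the groups overlapped elsewhere. The same library was lowest for COL5A1 at 199 CPM, COL5A2 at 719 CPM, COL5A3 (XLOC_018465) at 573 CPM and PCOLCE at 171 CPM. It was highest of the 20 libraries for FBLN5 at 455 CPM, FBLN1 at 255 CPM and COL13A1, a transmembrane collagen, at 17.3 CPM.

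Marker genes also stood apart in castrated male 1. Its 7 adipocyte markers summed to 3831 CPM, against a range of 7061 to 36159 CPM in females and a castrated male median of 21367. SCD was at 253 CPM there and FASN at 83.4 CPM, the lowest of the 20 libraries for both lipid synthesis enzymes. Its 7 macrophage markers summed to 1053 CPM, against 87.6 to 402 CPM in females and a castrated male median of 263. Its 7 fibroblast markers summed to 5776 CPM, the lowest of the 20 libraries, against 6014 to 8582 CPM in females. Its 4 endothelial markers summed to 2411 CPM, the highest of the 20 libraries, against 1296 to 2053 CPM in females. The castrated male medians of these sums were 7313 and 1670 CPM. No marker of these lists was at 0 in every library. The part of these cells in the fibrillar collagen values was not tested. In bulk tissue, fewer cells of a type and less RNA per cell cannot be told apart.

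Female 7 combined low matrix genes with high hydroxylases. Among the 20 libraries it was lowest for LOX at 3.82 CPM, FBN1 at 84.5, COL14A1 at 229, COL8A1 at 13.9, FN1 at 550 and FBLN1 at 53.8 CPM. In FPKM it was also lowest for LOX, COL14A1, COL8A1, FN1 and FBLN1. Its FBN1 was not the lowest in FPKM, at 45.0 against 34.6 in the library labelled female 10. COL3A1 (XLOC_012878), lowest of the females in CPM, was at 5203 FPKM in female 7, above the median of 4968. Female 7 was highest for P4HA2 at 476 CPM, P4HA1 (XLOC_011478) at 450, PLOD1 at 269, PLOD3 at 207 and PCOLCE at 679 CPM. P4HA1 ran from 87.4 to 450 CPM in females, with a median of 133, and from 101 to 235 CPM in castrated males, with a median of 158. The next highest female had 225 CPM of P4HA1 and 163 CPM of P4HA2. Its macrophage markers summed to 87.6 CPM and its cartilage and tendon markers to 99.3 CPM, the lowest of the females in both, and the part of these cells was not tested.

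Females 2 and 3 held the highest values of several matrix genes. Female 2 was highest for ELN at 560 CPM, COL8A1 at 201, LOX at 33.2, COL12A1 (XLOC_000243) at 318 and COL28A1 at 18.5 CPM. Female 3 was highest for FN1 at 2529 CPM, FBN1 at 630, COL14A1 at 971, P4HA3 at 32.9 and LOXL1 at 40.3 CPM. In female 2 the 6 smooth muscle and pericyte markers summed to 1355 CPM, against a female median of 730. COL28A1 is a collagen known in mouse from the sheath of peripheral nerves. Castrated male 3 followed with 452 CPM of ELN, 486 CPM of FBN1 and 1523 CPM of FN1. The same muscle and pericyte markers summed to 1083 CPM in female 3. In castrated male 3 they summed to 636 CPM, against a castrated male median of 690. Castrated male 5 had the highest sum of the castrated males, 1152 CPM, with 79.7 CPM of ELN. ELN and MYH11, 1 of these markers, had r = 0.37 over the 20 libraries (permutation p = 0.108, adjusted p = 0.289). Beyond such correlations, the part of smooth muscle cells in these values was not tested.

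**Figure D2:**
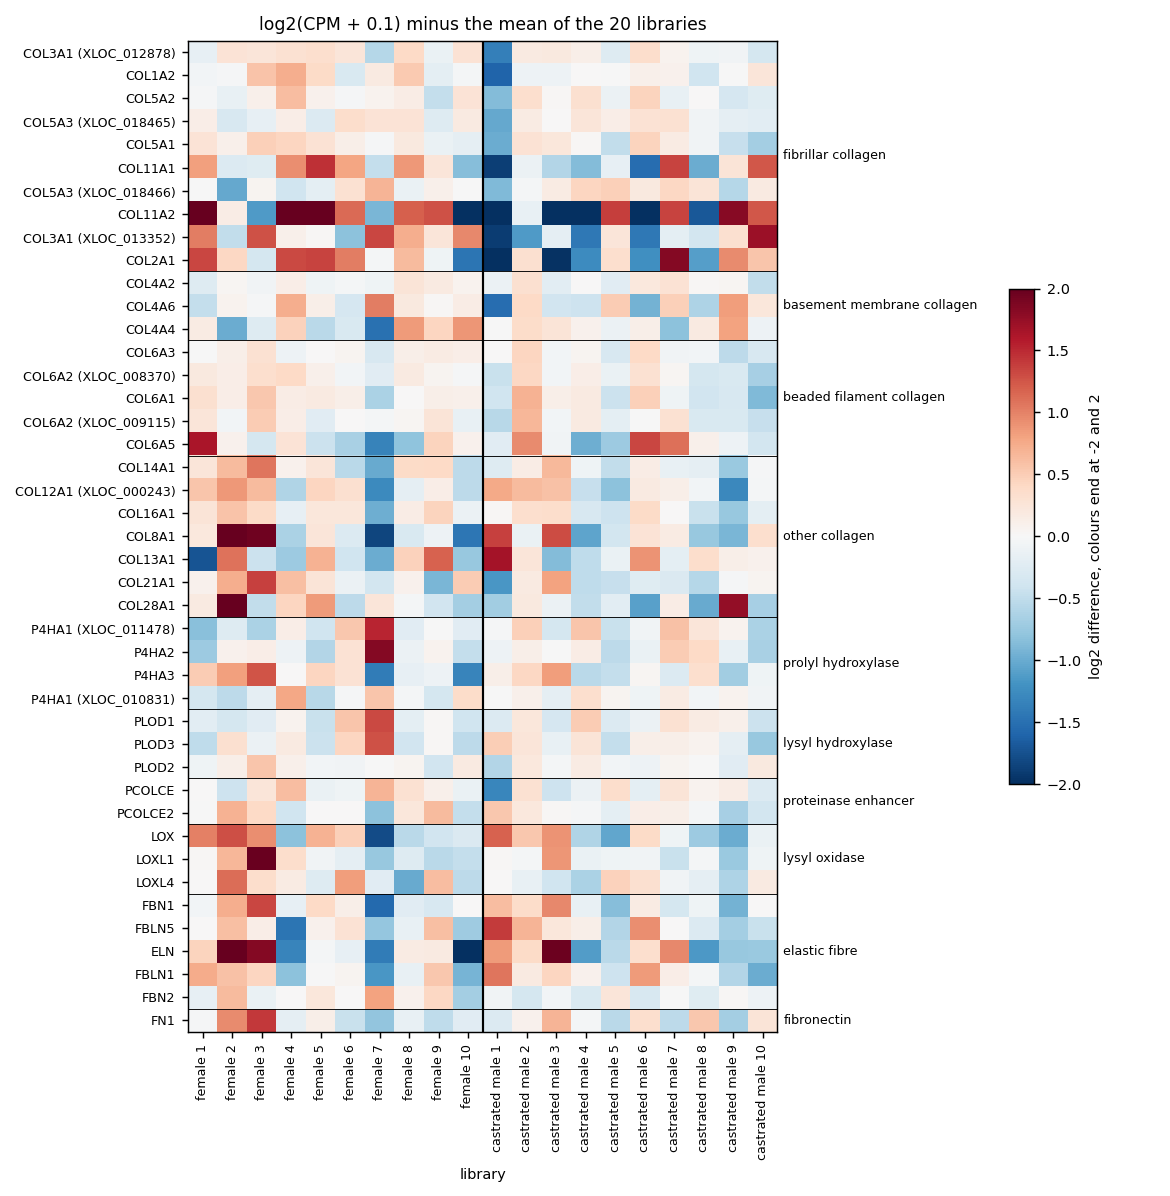
log2(CPM + 0.1) of each of the 43 members minus its mean over the 20 libraries, females left and castrated males right, with members grouped by role; colours end at -2 and 2. Castrated male 1 is low in the fibrillar collagens, female 7 is high in P4HA1, P4HA2, PLOD1 and PLOD3, and females 2 and 3 are high in ELN, FBN1 and FN1.

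Members differed widely in how much they varied between animals. The residual SD of log2 CPM, with the mean of each sex removed, had a median of 0.564 over the 43 members. The largest values were 1.93 for COL11A2, 1.23 for COL2A1, 1.22 for ELN, 1.07 for COL8A1, 0.95 for the second COL3A1 locus (XLOC_013352) and 0.93 for COL11A1. Loci of similar level had a median SD of 0.240 around ELN and 0.234 around COL8A1, and of 0.468 around the weaker COL11A2. ELN spanned 26.2 to 560 CPM in females, with a median of 122, and 52.3 to 452 CPM in castrated males, with a median of 113. COL11A2 spanned 0.186 to 11.9 CPM in females, with a median of 4.32, and 0.116 to 6.89 CPM in castrated males, with a median of 1.10.

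The steadiest members in CPM were COL4A2 with a residual SD of 0.21, PLOD2 with 0.24 and COL6A3 with 0.24, near the medians of 0.264, 0.242 and 0.275 of loci at their level. Counts and FPKM disagree at COL4A2, with r = 0.10 between log2 CPM and log2 FPKM, so its spread is uncertain too. COL6A3 had 1471 to 2252 CPM in females, with a median of 1933, and 1271 to 2466 CPM in castrated males, with a median of 1759. PLOD2 had 37.4 to 71.6 CPM in females, with a median of 49.5, and 32.3 to 56.4 CPM in castrated males, with a median of 47.8. By role the median SD was 0.67 for elastic fibre genes, 0.63 for lysyl oxidases, 0.45 for fibrillar collagens and 0.31 for type VI chains. For COL1A2 the SD was 0.45 with castrated male 1 and 0.29 without it, and for COL3A1 (XLOC_012878) it was 0.41 with that library and 0.27 without it.

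Chains of collagens, enzymes and elastic fibre genes listed as partners mostly varied together. Of 38 pairs of known partners, 14 had both genes at a mean of at least 1 CPM, and the Pearson correlation of log2 CPM over 20 libraries passed an adjusted p of 0.05 in 12, all positive (two-sided permutation tests, 100000 permutations, adjusted over the 14 pairs). With Spearman correlation 11 of the 14 passed. The median r of the 14 pairs was 0.71. A share of correlated pairs among other loci is not given here, so the count cannot be called particular to partners. COL6A1 and COL6A2 (XLOC_008370), which share a trimer, had r = 0.90 (permutation p = 1e-05, the smallest these permutations can give, adjusted p = 3.5e-05) and rho = 0.87 (permutation p = 1e-05). Without the 2 libraries farthest from the COL6A1 median, r was 0.87. COL6A3 followed COL6A1 with r = 0.82 and COL6A2 with r = 0.68.

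Type V chains split. COL5A1 and COL5A2 had r = 0.75 (permutation p = 1.1e-04, adjusted p = 2.2e-04) and rho = 0.67 (permutation p = 0.00155), with r = 0.57 without the 2 farthest libraries. COL5A1 and COL5A3 (XLOC_018465) had r = 0.58 (permutation p = 0.0103, adjusted p = 0.012) but rho = 0.28 (permutation p = 0.229), and r was 0.26 without castrated male 1 and 0.13 without the 2 farthest libraries, so this relation rests on those libraries. COL1A2 and COL3A1 (XLOC_012878), the main fibrillar chains here, had r = 0.71 and rho = 0.41 with all libraries, and r = 0.26 without castrated male 1. The scarce cartilage-type chains tracked each other closely, with r = 0.90 for COL11A1 and COL2A1 and 0.87 for COL11A1 and COL11A2.

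The elastic fibre partners were also correlated. LOX, which cross-links elastin, and ELN had r = 0.76 (permutation p = 3e-05, adjusted p = 7e-05) and rho = 0.80 (permutation p = 2e-05), and r = 0.70 without the 2 farthest libraries. FBN1 with ELN had r = 0.67, FBLN5 with ELN 0.64 and LOXL1 with ELN 0.63. Leaving out the 2 farthest libraries took LOXL1 with ELN to r = 0.45 (permutation p = 0.057). FBN1 and FBN2 had r = -0.34 (permutation p = 0.142, adjusted p = 0.142), and FBLN1 and FN1 had r = 0.39 (adjusted p = 0.0936), neither past the threshold. P4HA1 (XLOC_011478) and P4HA2, alternative subunits of 1 enzyme, had r = 0.87 (permutation p = 1e-05, adjusted p = 3.5e-05) and rho = 0.74 (permutation p = 3.8e-04), with r = 0.69 without females 1 and 7.

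All 435 pairs of the 30 members with a mean of at least 10 CPM were then correlated, a set added after the member values were seen. Of these, 125 passed an adjusted p of 0.05 over the 435 pairs in permutation tests, 113 positive and 12 negative. This count also stands without a share over pairs of other loci. Fibrillar chains correlated with each other at a median r of 0.61, type VI chains at 0.78, and elastic fibre genes at 0.66. The fibrillar median includes castrated male 1 and is not given without it. Without that library r went from 0.58 to 0.26 for COL5A1 and COL5A3 (XLOC_018465), and from 0.75 to 0.60 for COL5A1 and COL5A2. Elastic fibre genes and lysyl oxidases had a median r of 0.73, elastic fibre genes and the other collagens 0.74, while elastic fibre genes and fibrillar collagens had a median r of -0.18.

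The closest pair was LOX with COL12A1 (XLOC_000243), with r = 0.93 (permutation p = 1e-05, adjusted p = 2.4e-04) and rho = 0.95, and r = 0.90 without the 2 farthest libraries. ELN with COL8A1 reached r = 0.91. LOX passed the threshold in 15 of its 29 pairs, 13 of them positive, and ELN in 12 of 29, all positive. COL3A1 (XLOC_012878) passed in 6 of 29, which were COL1A2, COL5A1, COL5A2, COL6A1, COL6A2 (XLOC_008370) and PLOD2.

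The hydroxylases P4HA1, P4HA2, PLOD1 and PLOD3 varied as a group. PLOD1 and P4HA1 (XLOC_011478) had r = 0.92 (permutation p = 1e-05, adjusted p = 2.4e-04) and rho = 0.86, and r = 0.85 without females 6 and 7. PLOD3 and P4HA2 had r = 0.87 and rho = 0.77, with r = 0.72 without the 2 farthest libraries. PLOD1 and PLOD3 had r = 0.79. PLOD2, which hydroxylates the ends of fibrillar collagens, and P4HA3 did not follow them: PLOD2 passed only with COL1A2, COL5A2 and COL3A1 (XLOC_012878), and P4HA3 had r = 0.78 with both ELN and LOX.

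Of the 12 negative pairs, 11 joined PCOLCE, PLOD1 or P4HA1 with LOX, an elastic fibre gene or another non-fibrillar collagen, and the remaining pair was FBLN5 with COL1A2. FBLN5 and PCOLCE had r = -0.67 (permutation p = 0.00129, adjusted p = 0.00748), and r = -0.38 (permutation p = 0.12) without castrated male 1 and female 4. LOX and PCOLCE had r = -0.65 (permutation p = 0.00119, adjusted p = 0.00709) and rho = -0.65, with r = -0.55 without the 2 farthest libraries. FBN1 and PLOD1 had r = -0.58, and -0.32 without female 7. The number of negative pairs past the threshold was 3 with Spearman correlation, 3 without the 2 farthest libraries, 3 without female 7 and 7 without castrated male 1.

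**Figure D3:**
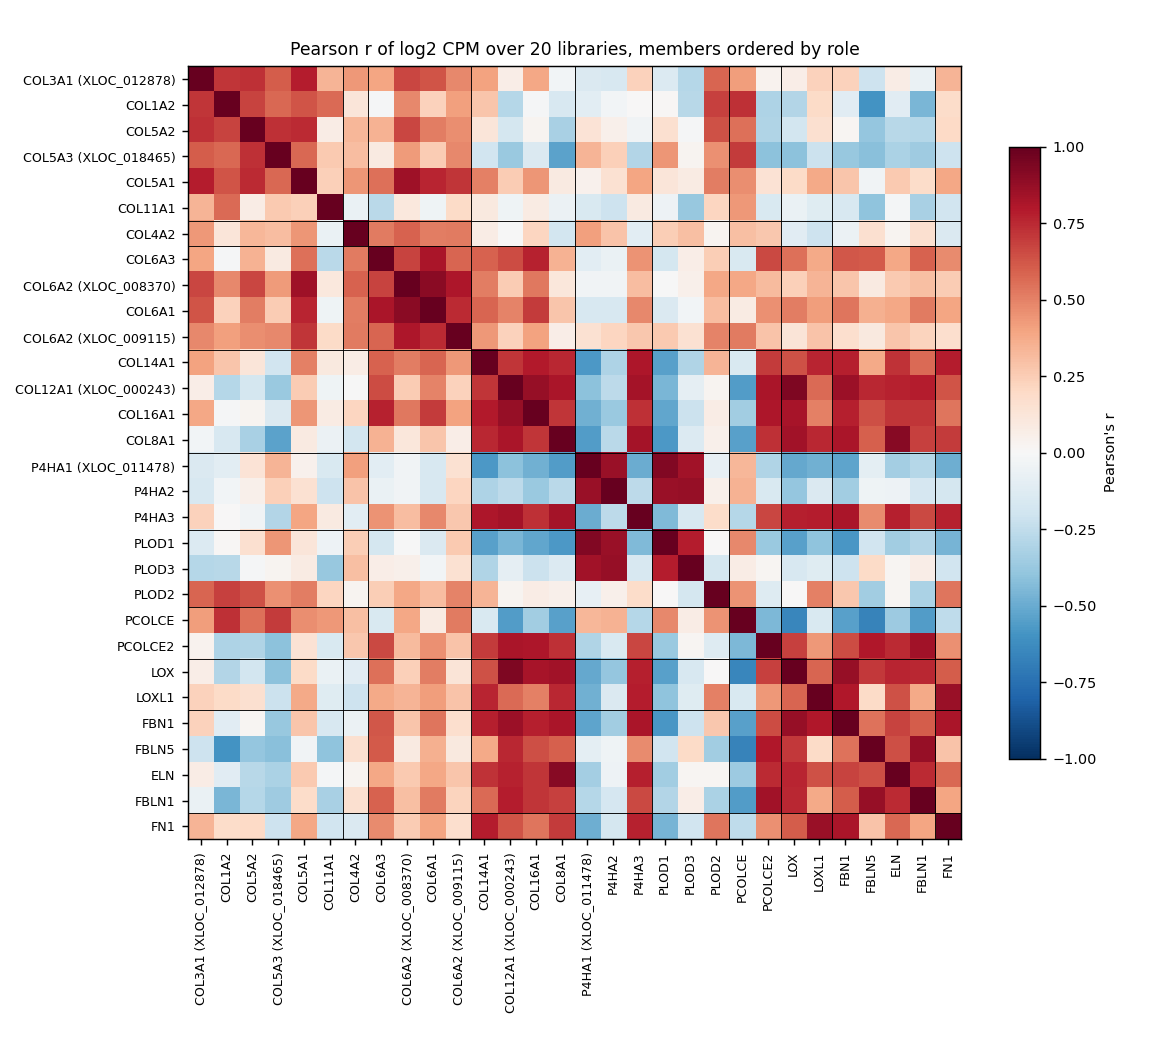
Pearson's r of log2 CPM over 20 libraries for the 30 members with a mean of at least 10 CPM, ordered by role with lines between roles. Red blocks mark the type VI chains, the hydroxylases P4HA1, P4HA2, PLOD1 and PLOD3, and the elastic fibre genes with LOX, COL8A1 and COL12A1, and the blue cells join PCOLCE with LOX (r = -0.65) and FBLN5 (r = -0.67).

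Members were also set against genes of other functions. Of 96 listed pairs with lipid synthesis, macrophage, smooth muscle, fibroblast and TGF-beta genes, 72 could be tested, and 7 passed an adjusted p of 0.05 over the 72 pairs, all positive (permutation tests, 100000 permutations). A share over pairs of other loci is not given here either, so the count cannot be called particular to these genes. COL3A1 (XLOC_012878) and FASN, the fatty acid synthase, had r = 0.79 (permutation p = 2.3e-04, adjusted p = 0.00744) and rho = 0.52 (permutation p = 0.0216, adjusted p = 0.142), and r = 0.53 without castrated male 1 and female 7. COL5A1 and FASN had r = 0.76 and rho = 0.67. COL1A2 and SCD had r = 0.77 with castrated male 1 and 0.30 without it. ELN and TGFB3, a growth factor that induces matrix genes, had r = 0.74 (permutation p = 1.6e-04, adjusted p = 0.00744) and rho = 0.66 (adjusted p = 0.0695), and r = 0.59 without the 2 farthest libraries. LOX and CSF1R, a macrophage receptor, had r = 0.69, FN1 and TGFB3 had 0.62, and LOX and TGFB3 had 0.60. By Spearman correlation 0 of the 72 pairs passed, as did 0 in Pearson permutation tests without the 2 farthest libraries and 1 without castrated male 1, whereas 10 passed without both libraries numbered 10 and 9 on residuals after sex and age. Without the 2 farthest libraries r was 0.62 for LOX and CSF1R, 0.54 for LOX and TGFB3 and 0.21 for FN1 and TGFB3.

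Females and castrated males could not be told apart in any member. At an adjusted p of 0.05, edgeR called 0 of 21587 loci (0.0%), and 0 of the 45 members tested. At an unadjusted p under 0.05 it took 935 loci (4.33%; 2.28% with estimates above 0 and 2.05% below 0) and 0 members. DESeq2 called 5 loci, limma-voom with quality weights 9, and edgeR 18 without the libraries labelled female 10 and castrated male 10. No member was among those called in any of these runs. The estimates of 37 members lay above 0, against 50.9% of all loci, and of 8 below 0, against 49.1%, and their median was 0.19 (log2, female minus castrated male) against 0.00 over all loci. These members share libraries and vary together, as shown above, so this count is a description.

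Estimates of the fibrillar collagens were above 0 in 9 of 10 loci, with a median of 0.29, and those of the lysyl oxidases in 3 of 3, with a median of 0.30. In females COL1A2 averaged 4185 ± 1048 CPM, and in castrated males 3334 ± 852 CPM (SD over 10 animals of each sex), with an estimate of 0.33 ± 0.18 (SE, edgeR adjusted p = 0.999955). COL5A1 had an estimate of 0.26 ± 0.15 and COL3A1 (XLOC_012878) of 0.21 ± 0.17, both with an adjusted p of 0.999955 in the edgeR fit. Without castrated male 1 the estimates were 0.23 for COL1A2, 0.19 for COL5A1 and 0.12 for COL3A1 (XLOC_012878). Without both libraries numbered 10 that of COL1A2 was 0.41 (unadjusted p = 0.0446, edgeR adjusted p = 0.999786). In the same run COL5A1 had 0.25 and COL3A1 (XLOC_012878) 0.17. COL21A1, a fibril-associated collagen, had the smallest unadjusted p of all members, 0.0665, with an estimate of 0.49 ± 0.26. FBN2 followed at 0.29 ± 0.15. The second COL3A1 locus (XLOC_013352) had 1.02 to 4.86 CPM in females, with a median of 2.69, and 0.427 to 6.37 CPM in castrated males, with a median of 1.52. The highest value of that group was in the library labelled castrated male 10. The estimate was 0.68 ± 0.41 with all libraries and 1.10 without both libraries numbered 10 (unadjusted p = 0.0068, edgeR adjusted p = 0.999786).

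Estimates below 0 were few and small. FBLN5 had 62.3 to 262 CPM in females, with a median of 177, and 107 to 455 CPM in castrated males, with a median of 179. Its estimate was -0.31 ± 0.27 with all libraries and -0.11 without castrated male 1. COL13A1 at -0.22 ± 0.36 and FBLN1 at -0.13 ± 0.26 changed sign without castrated male 1. COL6A5 had -0.17 ± 0.36, and the second COL5A3 locus (XLOC_018466) had -0.12 ± 0.19. FN1, ELN, FBN1, LOX and the PLOD and P4HA genes had estimates between -0.01 and 0.25, each within 1 SE of 0. Of the other collagen pathway genes, 14 of 16 had estimates above 0, with a median of 0.12, and 2 had an unadjusted p under 0.05, with 0.52 ± 0.16 for CREB3L1, a factor that activates collagen genes, and 0.22 ± 0.10 for BMP1, the procollagen C-proteinase. The 7 macrophage markers had estimates below 0, with a median of -0.63 and a summed level of 87.6 to 402 CPM in females and 173 to 1053 CPM in castrated males, and none at 0 in all libraries. Their part in the member values was not tested.

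Age at slaughter was examined next. The slope on age within sex was estimated over animals of 235 to 250 days for females and 233 to 249 days for castrated males. At an adjusted p of 0.05, edgeR called 0 of 21587 loci (0.0%) and 0 of 45 members, the smallest adjusted p of a member being 0.80. DESeq2 called 5 loci and limma-voom with quality weights 0, and none was a member. At an unadjusted p under 0.05 there were 1189 loci (5.51%) and 13 members, 11 with a slope below 0 (3.73% of all loci) and 2 above 0 (1.78% of all loci). Slopes lay below 0 in 33 of 45 members, against 49.8% of all loci, and above 0 in 12, against 50.2%, with a median of -0.13 (log2 per 10 days) against 0.00.

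Slopes below 0 were found across elastic fibre, lysyl oxidase and fibril-associated genes. All 5 elastic fibre genes, 3 of 3 lysyl oxidases, 8 of 8 other collagens and 5 of 5 type VI loci had slopes below 0, whereas 4 of 10 fibrillar loci and 3 of 4 prolyl hydroxylase loci had slopes above 0. COL8A1 had 13.9 to 201 CPM in females, with a median of 43.9, and 24.2 to 129 CPM in castrated males, with a median of 50.6, and its slope was -1.23 ± 0.39 (SE, unadjusted p = 0.00488, edgeR adjusted p = 0.859). Its 3 highest animals were female 2 at 235 days, female 3 at 239 days and castrated male 1 at 237 days. ELN had a slope of -1.13 ± 0.47, and of -0.73 without female 2 (unadjusted p = 0.188). The slope was, for LOX, -0.78 ± 0.33, for FBN1 -0.63 ± 0.26, for FN1 -0.60 ± 0.24 and for COL12A1 (XLOC_000243) -0.60 ± 0.24. P4HA3 had -0.63 ± 0.26, COL13A1 -0.83 ± 0.33, COL14A1 -0.44 ± 0.21 and PCOLCE2 -0.34 ± 0.16.

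COL28A1 had the smallest p of the members. Its slope was -1.25 ± 0.30 (unadjusted p = 4.08e-04, edgeR adjusted p = 0.80). It had 18.5 CPM in female 2 and 1.82 to 5.44 CPM in the other 9 females, against 10.3 CPM in castrated male 9, an animal of 235 days, and 1.35 to 3.44 CPM in the other 9 castrated males. Without female 2 the slope was -0.79 (unadjusted p = 0.0224). NCAM1, a neural adhesion molecule, was highest in female 2 at 19.6 CPM, against a female median of 9.61, while castrated male 1 held the highest castrated male value of 12.7 CPM, against a castrated male median of 8.52. Its slope was -0.36 ± 0.15, and the part of nerve in COL28A1 was not tested. NCAM1 is 1 gene of a nerve marker list whose other genes are not reported here. Its highest libraries need not be those of the other nerve markers.

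Both COL5A3 loci had slopes above 0 at an unadjusted p under 0.05, and the other 10 slopes above 0 did not reach it. COL5A3 (XLOC_018465) had 928 to 1478 CPM in females, with a median of 1276, and 573 to 1433 CPM in castrated males, with a median of 1224, and its slope was 0.33 ± 0.13 (unadjusted p = 0.0148, edgeR adjusted p = 0.859). Its second locus (XLOC_018466), with medians of 8.85 CPM in females and, in castrated males, 10.18 CPM, had 0.57 ± 0.16 (unadjusted p = 0.00161, edgeR adjusted p = 0.848). PLOD1 had 0.30 ± 0.20, P4HA1 (XLOC_011478) 0.27 ± 0.26 and its second locus (XLOC_010831) 0.25 ± 0.16, none at an unadjusted p under 0.05. Without female 7 these slopes were 0.10 for PLOD1, 0.02 for P4HA1 (XLOC_011478) and 0.20 for its second locus, and that of P4HA2 was -0.10, against 0.25 with all libraries. COL3A1 (XLOC_012878) at -0.07 ± 0.17 and COL1A2 at -0.02 ± 0.19 were near 0.

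The count of members at an unadjusted p under 0.05 depended on few animals. It was 13 of 45 with all libraries (28.9%, against 5.51% of all loci) and 5 when female 2 was left out (11.1%, against 3.38% of all loci). Leaving out female 3 gave 8 (17.8%, against 4.91%), and leaving out castrated male 5 also gave 8 (against 4.72%). Leaving out females 2, 3 and 7 together gave 2 (4.44%, against 2.70%). Leaving out both libraries numbered 10, whose sex-linked loci went against their labels, gave 9 (20.0%, against 5.24%). In that edgeR run the unadjusted p was 0.0618 for ELN, 0.0661 for P4HA3, 0.113 for COL14A1 and 0.105 for PCOLCE2. Of the collagen-associated matrix genes, 22 of 23 had slopes below 0, with a median of -0.43 and 9 at an unadjusted p under 0.05, among them -0.51 ± 0.18 for BGN, the proteoglycan biglycan, and -0.44 ± 0.13 for LTBP1, which stores latent TGF-beta. TGFB3 had -0.91 ± 0.20 (edgeR adjusted p = 0.575) and TIMP1, an inhibitor of collagen-degrading proteases, -0.70 ± 0.19. All 7 macrophage markers had slopes below 0 (median -0.59) and all 7 adipocyte markers above 0 (median 0.16). Slopes were also below 0 for 10 of 10 cartilage and tendon markers (median -0.27), 5 of 6 smooth muscle and pericyte markers (median -0.24), 5 of 7 fibroblast markers (median -0.29) and 4 of 4 endothelial markers (median -0.12). Adipocyte markers summed to 7061 to 36159 CPM in females and 3831 to 35369 CPM in castrated males, with none at 0 in all libraries, and the part of cell composition in the member slopes was not tested.

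**Figure D4:**
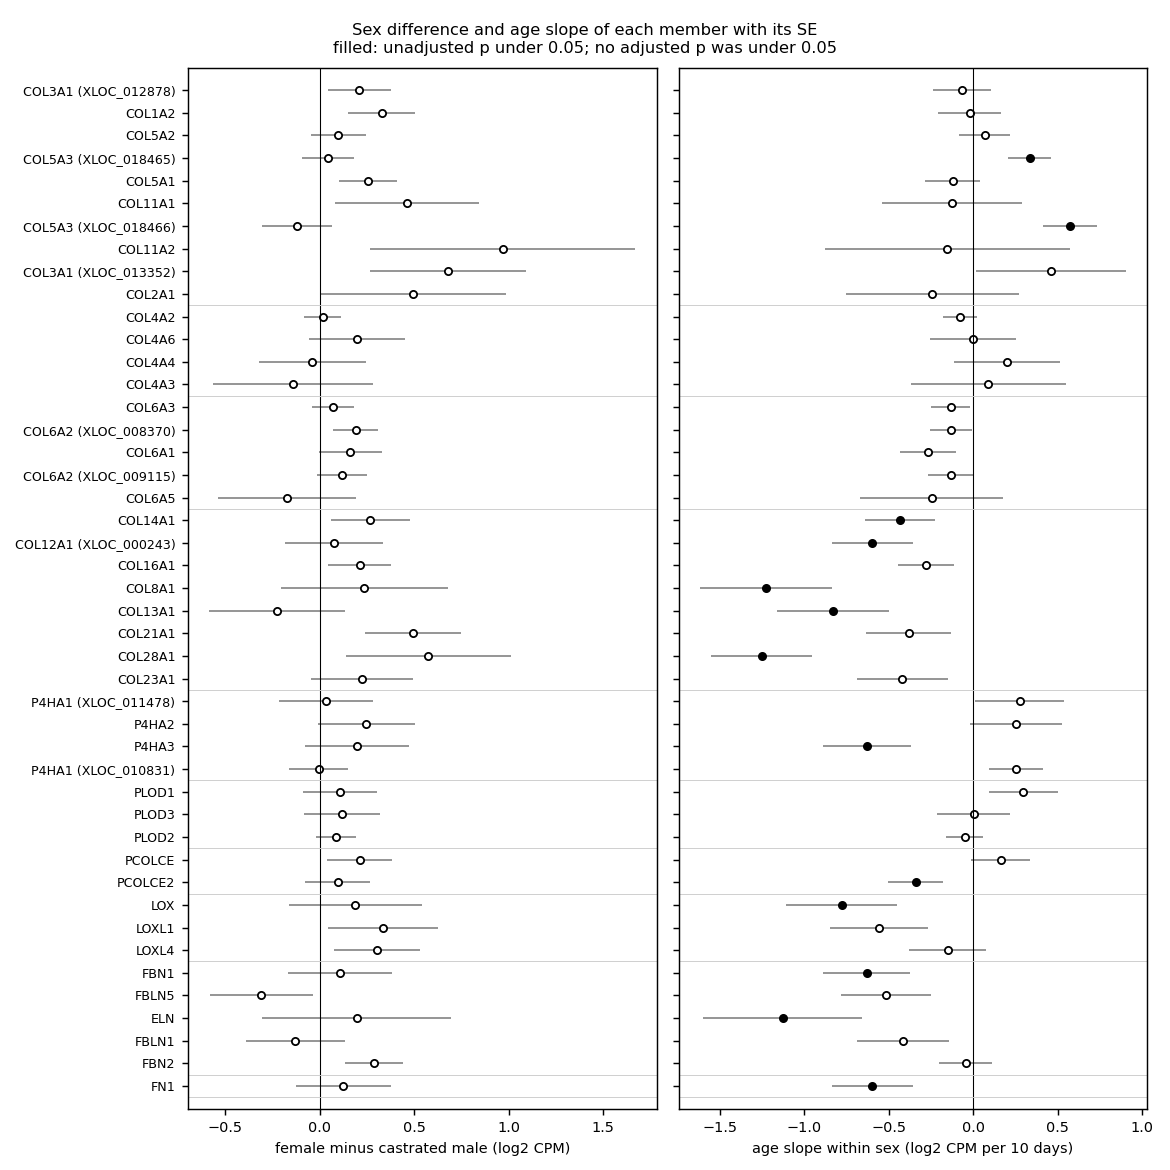
Estimate and SE of each of the 45 members tested, by role from fibrillar collagens at the top to FN1 at the bottom, for female minus castrated male (log2 CPM, left) and for the slope on age within sex (log2 CPM per 10 days, right); filled points have an unadjusted p under 0.05. No member is filled on the left and 13 are filled on the right, 11 of them below 0.

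**Figure D5:**
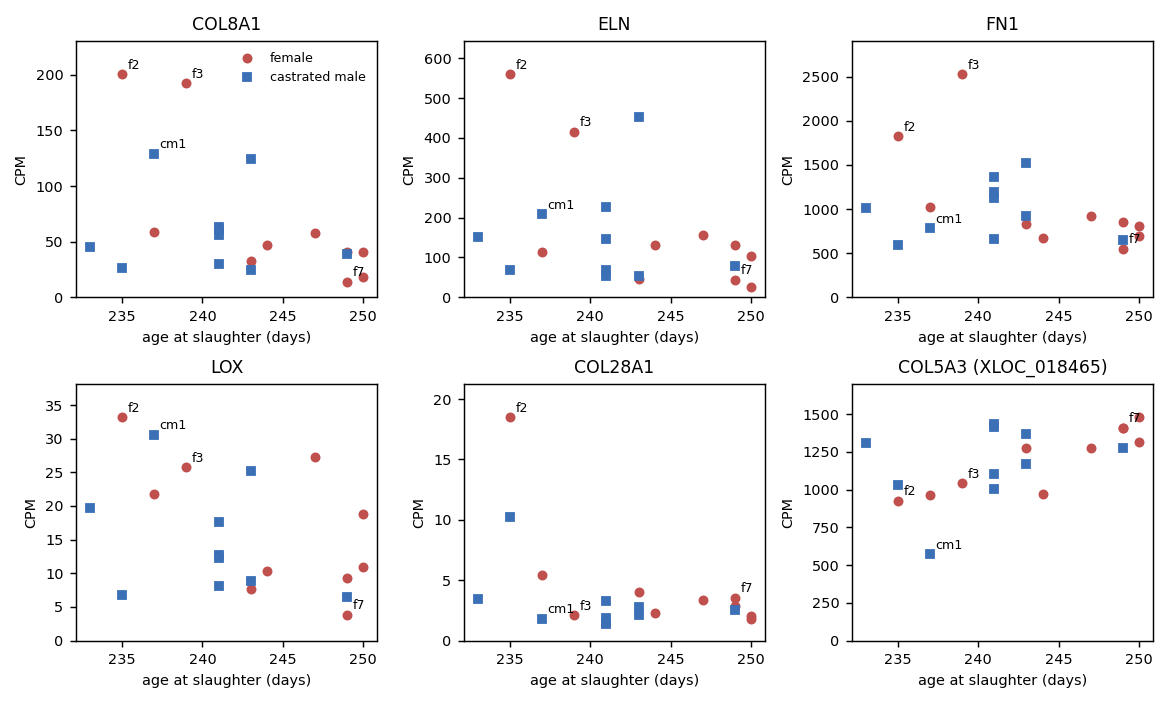
CPM against age at slaughter in days for COL8A1, ELN, FN1, LOX, COL28A1 and COL5A3 (XLOC_018465), with females as red circles and castrated males as blue squares; f2, f3, f7 and cm1 mark female 2, female 3, female 7 and castrated male 1. Females 2 and 3, at 235 and 239 days, hold the highest FN1 and COL8A1 values, and female 2 the highest COL28A1 value at 18.5 CPM.

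Transcript models differed in how far 1 isoform carried a gene. Isoforms could be tied to their locus for all 38 members with a mean of at least 1 FPKM. COL6A1 and PCOLCE had 1 isoform. FN1 had 3 isoforms, and the leading one held 92.2% ± 1.41 of its FPKM (SD, n = 20). The leading isoform held 88.0% ± 6.75 in ELN, 67.7% ± 5.20 in COL6A2 (XLOC_008370), 54.5% ± 4.70 in COL1A2, 46.1% ± 10.15 in COL3A1 (XLOC_012878) and 32.7% ± 12.6 in FBN1.

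In COL6A3 the leading isoform of 9 held 77.8% ± 16.8 of the FPKM, and 8.60% in the library labelled female 10. Over the 32 members with more than 1 isoform, female 7 had the lowest or highest share of the leading isoform in 15 and the library labelled female 10 in 14, while no other library exceeded 5. In female 7 the FPKM obtained per CPM was 1.67 times that of the median library for COL3A1 (XLOC_012878) and 1.93 times for FBN1. In the library labelled castrated male 10 it was 0.595 to 2.01 times that of the median library over 29 members. Isoform shares and FPKM of these libraries are uncertain. Their CPM may be too, since the values do not show which measure is off.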

How the data were processed

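Backfat RNA was sequenced from 20 pigs, 10 female and 10 castrated male. The authors deposited raw counts per locus, and FPKM per locus and isoform. Per the submitters' processing notes, the tools were Cufflinks 2.1.1, DESeq2, Bowtie2 2.1.0.0 and TopHat2 2.0.8, and the build was Sscrofa10.2; a strand setting is not given in the sources used here. Of 23483 loci, 12707 carry an Ensembl identifier and 9139 match a single symbol.

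Counts were tested with edgeR 4.0.16 (R 4.3.3, TMM factors, its default filter on low counts, quasi-likelihood test, Benjamini-Hochberg adjustment over 21587 loci), for sex over all 20 libraries and for age with sex in the model. The fit was tested on simulated data. Alternatives used DESeq2 1.42.0 and limma 3.58.1. Correlations used log2 CPM (prior count 2) and 100000 two-sided permutations (scipy 1.17.1). Levels between genes were compared in FPKM. Total counts per library run from 25754778 to 51248122. No 2 libraries held identical values.

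The members and gene lists were chosen with earlier results of these data known. Named in full were the 15 members of highest median FPKM, the 5 of smallest p per direction, the 6 of largest and 3 of smallest spread, main chains and enzymes fixed by name, and pairs past the threshold; single genes outside this rule, such as COL4A3, COL28A1 for its animals and members at the extremes of a library, were chosen after their values were seen. Some marker genes and lists are not reported here.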

Additional observations from a re-analysis of the deposited data

Results flagged for a closer look

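The 38 members named by level, spread, test or fixed name were examined in each sex. Among these 76 sets of 10 libraries, 18 had a highest or lowest library far from its nearest neighbour. The rule flags about 1 in 20 groups only where values follow a normal distribution. CPM were used without a log scale, and some members were chosen for their spread or small p, so this rate may not hold here. The members are also correlated. No explanation was tested.

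Female 7 stood alone in the hydroxylases. P4HA1 (XLOC_011478) was at 450 CPM with the next female at 225, P4HA2 at 476 with the next at 163, PLOD1 at 269 with the next at 159, and PLOD3 at 207 with the next at 115 CPM. Female 3 had 71.6 CPM of PLOD2 with the next female at 54.8, and 40.3 CPM of LOXL1 with the next at 16.1. Female 2 had 18.5 CPM of COL28A1 with the next at 5.44, and female 1 had 5.61 CPM of COL6A5 with the next at 2.41.

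Castrated male 3 was the highest castrated male for ELN at 452 CPM with the next at 226, COL14A1 at 722 with the next at 509, LOXL1 at 18.8 with the next at 10.4, and COL21A1 at 6.95 with the next at 4.44 CPM. Castrated male 1 was lowest for COL1A2 at 1190 CPM with the next at 2736 and for COL5A3 (XLOC_018465) at 573 with the next at 1007, and highest for COL13A1 at 17.3 with the next at 10.1 CPM. Castrated male 9 had 10.3 CPM of COL28A1 with the next at 3.44, and castrated male 7 had 6.39 CPM of COL2A1 with the next at 3.40. The library labelled castrated male 10 had 6.37 CPM of the second COL3A1 locus (XLOC_013352) with the next at 2.35.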

How the results depend on the processing

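No member passed an adjusted p of 0.05 for sex or age under any alternative run. Over all loci, the sex difference called 0 with edgeR, 5 with DESeq2, 9 with limma-voom, 12 and 11 with limma on log2 FPKM (pseudocounts 0.1 and 1) and 18 without both libraries numbered 10, and 0 to 13 when each library was left out. Members at an unadjusted p under 0.05 for sex numbered 0 in edgeR, 3 of 45 with limma-voom (6.67%, against 4.25% of all loci), 3 with age added (against 3.63%), 1 of 41 with either FPKM scale (2.44%, against 2.77% and 2.75%), 4 without both libraries numbered 10 (8.89%, against 4.86%), and 0 to 2 leaving out each library. Members with a sex estimate above 0 numbered 33 to 39 over those fits. For age, DESeq2 called 5 loci and limma on either FPKM scale 1, with 0 to 1 leaving out each library. Members at an unadjusted p under 0.05 for age numbered 13 of 45 in edgeR (28.9%, against 5.51% of all loci). They numbered 12 of 46 with DESeq2 (26.1%, against 6.32%) and 11 of 41 with either FPKM scale (26.8%, against 5.11% and 5.06%). With limma-voom 7 of 45 remained (15.6%, against 4.42%). Leaving out each library gave 5 to 16, and leaving out females 2, 3 and 7 gave 2 (4.44%, against 2.70%). The cause was not tested.

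Sex estimates changed sign for COL6A5 (0.0157 without castrated male 6), COL13A1 (0.0576 with age added and 0.0466 without castrated male 1) and FBLN1 (0.0159 in both). Leaving out each library gave -0.53 to 0.0157 for COL6A5, -0.412 to 0.0466 for COL13A1 and -0.23 to 0.0159 for FBLN1. The age slope of P4HA1 (XLOC_011478) was -0.10 without females 2, 3 and 7. Pairs with outside genes past the threshold numbered 0 with Spearman correlation, 1 without castrated male 1 and 0 without the 2 farthest libraries. The members' mean share of counts was 2.54% and was 3.00% without mitochondrial loci. No paired analysis was possible because the library numbers follow deposit order and pair no animals. At 1 CPM or below, where 25.8 to 51.2 counts or fewer stand behind a value, counting error adds to the spread.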
